A study of Homo sapiens with 132 samples.

Results

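The genes described here are 8 matrix metalloproteinases (MMP1, MMP2, MMP3, MMP7, MMP9, MMP10, MMP13 and MMP14) and 2 tissue inhibitors of metalloproteinases (TIMP1 and TIMP2), 10 of the 65217 Ensembl identifiers in each count file. They were chosen by symbol as members of the family, with earlier results of these data known. Gene expression was measured by RNA sequencing in 4 established gastric cancer cell lines treated with drugs against EGFR and HER2, in 44 conditions with 3 biological replicates, 1 library each. Cells were collected 4 h or 24 h after treatment. Each of the 4 lines (Hs746T, MKN1, MKN7, NCI-N87) was left untreated or received trastuzumab (Tra, an antibody against HER2, 5 µg/ml), afatinib (Afa, an inhibitor of the EGFR and HER2 kinases, 0.5 µM) or both. MKN1 and Hs746T also received EGF (5 ng/ml), the EGFR antibody cetuximab (Cet, 1 µg/ml) or both. The solvent of afatinib was DMSO, and no library had DMSO alone. Afatinib was therefore compared with untreated cells, and drug and solvent cannot be told apart. Hs746T was kept in another medium than the other 3 lines, so cell line and medium cannot be told apart in that comparison.

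Matrix metalloproteinases are zinc-dependent proteases that cut proteins of the extracellular matrix and the cell surface. Most are secreted as inactive proenzymes. MMP14 stays in the membrane and, with TIMP2 as a bridge, activates the proenzyme of MMP2, while TIMP2 at higher amounts inhibits MMP14. MMP1 and MMP13 are collagenases, MMP2 and MMP9 gelatinases, MMP3 and MMP10 stromelysins, and MMP7 is matrilysin, which epithelial cells make. Transcription of several of these genes is known to respond to AP-1 and ETS factors downstream of the MAPK cascade. RNA levels were measured here, not protein or activity.

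The promoters show how the genes differ in their start regions. The reference table from RefSeq (GRCh38.p14) held entries for MMP7, MMP10, MMP14 and TIMP1. The first 3 are shown, each from 200 bases before the RefSeq start and read 5′ to 3′ on the gene's strand, MMP7 and MMP14 because they moved under treatment and MMP10 because it shares the arrangement of matches of MMP7. Capitals mark matches, on either strand, to a TATA box (TATAAA), an AP-1 site (TGANTCA), an ETS site (AGGAAG) and a GC box (GGGCGG). The windows are chr11:102530754-102530947 (minus strand) for MMP7, chr11:102780629-102780828 (minus strand) for MMP10 and chr14:22836385-22836556 (plus strand) for MMP14.
MMP7: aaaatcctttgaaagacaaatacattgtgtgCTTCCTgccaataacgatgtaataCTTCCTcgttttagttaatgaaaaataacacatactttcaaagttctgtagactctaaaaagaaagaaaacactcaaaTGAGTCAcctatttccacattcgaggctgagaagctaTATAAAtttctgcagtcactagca
MMP10: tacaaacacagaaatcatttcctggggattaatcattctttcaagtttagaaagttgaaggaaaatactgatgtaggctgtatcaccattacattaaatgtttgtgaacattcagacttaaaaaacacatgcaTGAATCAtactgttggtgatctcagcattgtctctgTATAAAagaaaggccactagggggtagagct
MMP14: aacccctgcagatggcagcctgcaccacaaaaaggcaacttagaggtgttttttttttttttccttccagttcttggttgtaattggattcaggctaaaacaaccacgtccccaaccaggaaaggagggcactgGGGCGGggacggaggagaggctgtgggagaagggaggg
MMP7 and MMP10 each had an AP-1 match at -67, TGAGTCA in MMP7 and TGAATCA in MMP10, and a TATA box match at -30 and -31. The MMP7 window also had ETS matches at -169 and -145. The MMP14 window held a GC box match at -66 and no match to the AP-1 or TATA letters. Among 35116 RefSeq promoter windows of 300 bases, 7.71% held TGANTCA, 11.5% TATAAA, 33.6% AGGAAG and 45% GGGCGG. A match describes the letters only.

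Total counts per library ranged from 25832557 to 69434151, so that 3 counts stood for 0.0432 to 0.116 CPM (counts scaled to the library's total). All CPM in this paragraph are scaled that way. CPM of the members below were also normalised between libraries (TMM). Each library correlated with its replicates at a mean r of 0.977 to 0.993, lowest in replicate 1 of Hs746T with EGF and cetuximab for 4 h. In Hs746T replicate 1 stood apart in 14 of 14 conditions: its counts differed from both other replicates by 48.7 to 219 times the Poisson expectation, against 7.02 to 54.8 times between those. In MKN1 replicate 2 did so in 13 of 14 conditions, and in MKN7 and NCI-N87 replicate 3 did in 6 of 8 each. Calls that were lost without a replicate number are given beside the results. The epithelial marker CDH1 (E-cadherin) reached 188 CPM or more in every NCI-N87 and MKN7 library but at most 7.01 CPM in MKN1 and 6.39 CPM in Hs746T, where the mesenchymal marker VIM (vimentin) was at least 1398 CPM. The epithelial keratins had another order, with KRT8 at 8891 to 12860 CPM in MKN1 and 2028 to 3529 in MKN7, KRT18 at 1954 to 3953 and 540 to 1010, and KRT19 at 3346 to 6147 and 801 to 1443. EPCAM, another epithelial marker, was low in both Hs746T (16.8 to 39.9 CPM) and MKN1 (13.4 to 33.7 CPM). VIM stood at 175 to 1087 CPM in MKN1, against at most 15.1 CPM in MKN7 and 14.25 in NCI-N87. The mesenchymal marker ZEB1 was at 27.3 to 74.1 CPM in MKN1 and 42.5 to 83.8 in Hs746T. CDH2, also mesenchymal, was at most 1.085 CPM in MKN1 but at least 57.5 in Hs746T. Hs746T also had the fibroblast collagen COL1A1 at 374 to 697 CPM and the endothelial marker PECAM1 at 78.9 to 283 CPM. Their part in its protease levels was not tested. PTPRC, which marks leukocytes, did not exceed 0.671 CPM in any library. ERBB2, the gene of HER2, ran from 9903 to 26160 CPM in NCI-N87 and from 3402 to 7533 CPM in MKN7, against 74.1 to 197 CPM in the other lines. In bulk RNA, fewer cells of a kind and less RNA per cell cannot be told apart.

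MMP1, MMP10 and TIMP1 were listed at 0 in every library of the series. All 3 lie wholly inside a gene on the opposite strand by GENCODE 29 (GRCh38). MMP1 (chr11:102789920-102798160, minus strand) and MMP10 (chr11:102770503-102780628, minus strand) lie in WTAPP1 (chr11:102746968-102836766, plus strand), which had 5720 counts in all. TIMP1 (chrX:47582313-47586789, plus strand) lies in SYN1 (chrX:47571898-47619943, minus strand), which had 24711 counts. Of 831 protein-coding genes wholly inside a gene on the opposite strand only, 94.22% were listed at 0 in every library, against 4.213% of 7358 protein-coding genes that overlap no other gene. The 0 therefore says nothing about expression of these 3 genes, for which no level is given below.

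The other members had counts, and they lie on chromosomes 11 (MMP3, MMP7 and MMP13), 14 (MMP14), 16 (MMP2), 17 (TIMP2) and 20 (MMP9). MMP7, MMP13 and MMP14 overlap no other gene. The bases of the exons outside other genes were 96.5% for MMP2, 85.9% for TIMP2, 77.6% for MMP3 and 68.2% for MMP9, which overlaps the antisense gene SLC12A5-AS1, so reads in the shared bases may be missing from the counts. Levels between genes are given per kilobase of those bases.

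In untreated cells each cell line had its own set of abundant members. Each line has 6 untreated libraries (3 at each time), and CPM here is from one fit of all libraries. MMP14 ranged from 1846 to 2144 CPM in Hs746T with a median of 1965. The lowest and highest MKN7 libraries were at 97.2 and 152 CPM, those of NCI-N87 at 15.8 and 28.1, and those of MKN1 at 15.7 and 39.3. Every Hs746T library was thus above every library of the other lines, with a mean of 1982 ± 120 CPM (SD, n = 6) against 120 ± 19.9 in MKN7 (log2FC 4.05, SE 0.15, adjusted p = 1.06e-43, edgeR quasi-likelihood test with Benjamini-Hochberg adjustment). MKN1 and NCI-N87 overlapped and differed by a log2FC of -0.31 (adjusted p = 0.0373), which was not past the threshold without replicate 2 (0.247) or replicate 3 (0.196). TIMP2, the inhibitor, was more even, at 623 ± 36.0 CPM in Hs746T, 502 ± 36.8 in MKN1, 329 ± 78.9 in MKN7 and 161 ± 6.71 in NCI-N87 (each SD, n = 6).

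MMP9 was high in MKN7 alone among the lines. Its 6 untreated MKN7 libraries ran from 35.4 to 155 CPM with a median of 90.0 (mean 93.1 ± 52.3 SD, n = 6), while no library of the other lines exceeded 1.40 CPM. MKN7 was above MKN1 by a log2FC of 7.03 (SE 0.33, adjusted p = 1.70e-36), or 6.41 without replicate 3. The levels of MKN1 (0.790 ± 0.460 CPM) and Hs746T (0.526 ± 0.257), averaged over both times, were not called different (adjusted p = 0.283). Each SD spans both times, and MMP9 in untreated MKN1 fell between them (log2FC -1.51). The lines were not compared at each time. NCI-N87 was lowest at 0.121 ± 0.0392.

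MMP2 had its highest level in MKN1, where 6 libraries ran from 20.6 to 28.2 CPM with a median of 27.6. Its mean was 25.6 ± 3.45 CPM in MKN1 and 2.28 ± 0.519 in MKN7, while NCI-N87 had 0.316 ± 0.109 and Hs746T 0.0953 ± 0.0799 (SD, n = 6), and MKN7 was below MKN1 by a log2FC of -3.50 (SE 0.23, adjusted p = 1.89e-26). MMP3 was present in MKN7 (6.55 ± 3.18 CPM) and Hs746T (6.18 ± 1.72), which were not called different (log2FC -0.06, adjusted p = 0.831). In MKN1 it was near the detection floor, at 0.104 ± 0.0697 CPM, and in NCI-N87 it had 0 to 3 counts per library.

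MMP7 was highest in NCI-N87, with 1.20 to 3.72 CPM and a median of 2.03. MKN1 lay between 0.301 and 0.950 CPM, while Hs746T and MKN7 had at most 4 and 2 counts in a library. NCI-N87 was above MKN1 by a log2FC of 1.89 (SE 0.28, adjusted p = 3.62e-09). MMP13 was low everywhere, with means of 1.02 CPM in MKN7, 0.345 in Hs746T, 0.339 in MKN1 and 0.178 in NCI-N87. Hs746T and MKN1 were not called different (log2FC 0.03, adjusted p = 0.951).

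Over all 6 pairs of lines, 32 of 42 member tests were regulated, meaning an adjusted p under 0.05 with a log2FC beyond 1 in either direction. Per pair these were 6 of 7 members for MKN7 minus MKN1 (41.4% of all genes tested were regulated there), 5 for NCI-N87 minus MKN1 (45.9%) and 4 for Hs746T minus MKN1 (47.8%). They were 7 for NCI-N87 minus MKN7 (44.4%), 4 for Hs746T minus MKN7 (45.9%) and 6 for Hs746T minus NCI-N87 (49.1%). Between lines such a share of all genes was common. For NCI-N87 minus MKN1, MMP3 (log2FC -1.94, adjusted p = 0.0241) was not past the threshold without replicate 3 (0.0889). MMP13 passed there at less than 2-fold (-0.90, adjusted p = 0.0146), but not without replicate 2 (0.127). TIMP2 for NCI-N87 minus MKN7 (log2FC -1.01) was at -0.96 without replicate 1 and -0.93 without replicate 2. Among the 7 members with counts, which leave out TIMP1, TIMP2 was per kilobase the most abundant in MKN1 (104 CPM per kb), NCI-N87 (33.4) and MKN7 (67.9). In Hs746T it was MMP14, at 444 CPM per kb against 129 for TIMP2. In MKN7, MMP9 at 58.4 CPM per kb came next after TIMP2.

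**Figure D1:**
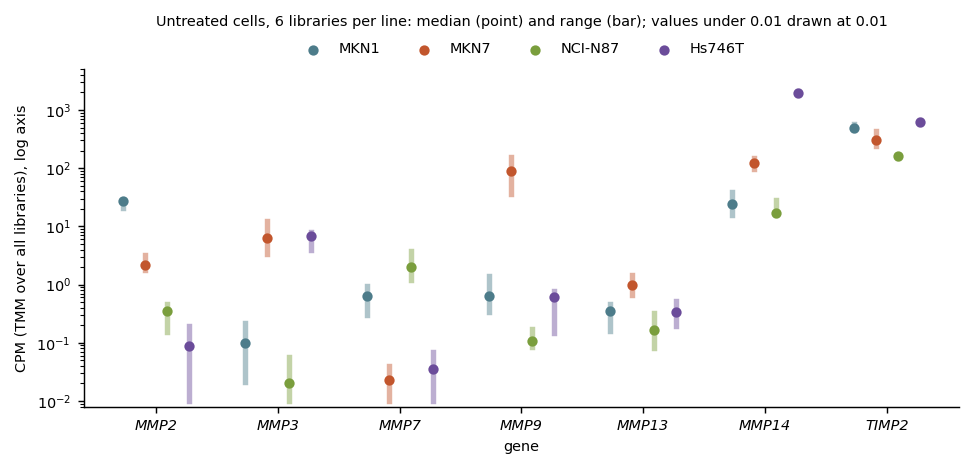
Levels of 7 members in untreated cells, in CPM on a log axis, with the median as a point and the range over 6 libraries of each cell line as a bar; values under 0.01 are drawn at 0.01. MMP14 stands highest in Hs746T (1846 to 2144 CPM), MMP9 in MKN7 (35.4 to 155 CPM) and MMP2 in MKN1 (20.6 to 28.2 CPM).

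Untreated MKN1 cells changed between 4 h and 24 h without any drug, which is the background for the treatments. Cells had received fresh medium shortly before treatment, so time in culture and time since fresh medium cannot be told apart. From here on CPM comes from the fit of the line's own libraries, in the order of replicates 1, 2 and 3. MMP14 stood at 19.3, 16.0 and 16.6 CPM at 4 h and at 35.4, 39.9 and 29.7 CPM at 24 h, with no overlap, and rose (log2FC 1.01, SE 0.16, adjusted p = 6.42e-06; 0.87 without replicate 2). MMP9 fell from 1.30, 0.825 and 1.43 CPM to 0.462, 0.347 and 0.429 CPM (log2FC -1.51, SE 0.33, adjusted p = 0.000497). MMP7 fell from 0.871, 0.875 and 0.971 CPM to 0.427, 0.429 and 0.301 CPM (log2FC -1.22, SE 0.28, adjusted p = 0.000826), with an adjusted p of 0.0543 without replicate 3. These were 3 of 7 members tested, where 8.06% of all genes were regulated.

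In the other lines no member was called over time, and whether the change with time differed between lines was not tested. None of 6 members tested was regulated in MKN7 (1.76% of all genes), NCI-N87 (0.0472%) or Hs746T (0.129%), and among these 18 tests 1, MMP3 in Hs746T, had an unadjusted p below 0.05, with 0 by DESeq2. With the replicate number as a block, MMP3 in MKN7 passed at a log2FC of -0.84 (adjusted p = 3.37e-05), TIMP2 in MKN7 at 0.37 (0.00234), MMP9 in MKN7 at -0.74 (0.0487) and MMP3 in Hs746T at -0.61 (0.0360).

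In MKN1, the question for EGF was which genes the ligand moved and whether cetuximab kept them from moving. At 4 h EGF raised MMP9 and MMP3, 2 of 7 members tested, where 1.48% of all genes were regulated. MMP9 stood at 1.30, 0.825 and 1.43 CPM in untreated cells and at 4.80, 3.62 and 3.35 CPM with EGF, with no overlap (log2FC 1.73, SE 0.28, adjusted p = 4.46e-05). MMP3 had 6, 9 and 5 counts in untreated libraries and 41, 29 and 21 with EGF, or 0.116, 0.225 and 0.135 against 0.685, 0.584 and 0.576 CPM (log2FC 1.96, SE 0.58, adjusted p = 0.0309). The MMP3 call did not hold without replicate 1 (adjusted p = 0.434), 2 (0.0613) or 3 (0.0809). MMP14, MMP13, MMP7, MMP2 and TIMP2 were not called at 4 h, and TIMP2 (log2FC 0.17, adjusted p = 0.195) passed only with the replicate block, at 0.0311.

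At 24 h EGF moved 5 of 7 members tested, in both directions, where 8.36% of all genes were regulated. MMP9 was again higher, at 1.31, 1.24 and 1.51 CPM against 0.462, 0.347 and 0.429 in untreated cells (log2FC 1.70, SE 0.32, adjusted p = 9.54e-05). MMP3 had 20, 12 and 12 counts against 3, 4 and 1 (log2FC 2.50, SE 0.72, adjusted p = 0.00689). The groups did not overlap for either gene, but the MMP3 call did not hold without replicate 1 (log2FC 2.23, adjusted p = 0.133).

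The 3 members that fell with EGF at 24 h were the membrane protease MMP14, matrilysin MMP7 and the collagenase MMP13. MMP14 stood at 14.7, 21.2 and 14.9 CPM with EGF and 35.4, 39.9 and 29.7 CPM without (log2FC -1.05, SE 0.16, adjusted p = 4.06e-06). Without replicate 1 its log2FC was -0.95 (adjusted p = 0.000894), just under 2-fold. Untreated libraries at 4 h had stood at 16.0 to 19.3 CPM before their rise with time. MMP7 stood at 0.104, 0.140 and 0.174 CPM with EGF and 0.427, 0.429 and 0.301 without (log2FC -1.45, SE 0.36, adjusted p = 0.00172; 0.0593 without replicate 1). MMP13 had 1, 3 and 7 counts with EGF and 26, 23 and 16 without (log2FC -2.44, SE 0.62, adjusted p = 0.00243). Without replicate 1 its log2FC was -1.93 (adjusted p = 0.0886), and without replicate 3 it was -3.34.

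TIMP2 and MMP2, both abundant in MKN1, stayed within 2-fold. TIMP2 was at 556, 576 and 620 CPM with EGF for 24 h and 503, 464 and 567 without, groups that overlapped (log2FC 0.19, SE 0.07, adjusted p = 0.0435), and passed in no fit without 1 replicate number (0.0770 to 0.211). Scaled by library size alone, which moved the median of all genes by -0.196, the TIMP2 difference was -0.0029, so its direction depends on the scaling. MMP2 differed by a log2FC of 0.07 (adjusted p = 0.795).

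Cetuximab given with EGF lowered MMP9 relative to EGF alone, and it was the only member called in that comparison at either time. At 4 h MMP9 stood at 2.13, 1.77 and 1.73 CPM with both against 4.80, 3.62 and 3.35 with EGF (log2FC -1.06, SE 0.26, adjusted p = 0.0441; 0.126% of all genes were regulated). At 24 h it stood at 0.493, 0.358 and 0.728 CPM against 1.31, 1.24 and 1.51 (log2FC -1.37, SE 0.31, adjusted p = 0.0260; 0.156% of all genes). The groups did not overlap at either time, yet neither call held in any fit without 1 replicate number (adjusted p 0.0618 or above at 4 h and 0.117 or above at 24 h), nor in a fit of the compared groups only. MMP3 at 24 h had 6, 6 and 2 counts with both against 20, 12 and 12 (log2FC -1.74, adjusted p = 0.293) and passed with the replicate block (-1.80, 0.0426).

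MMP14, MMP13 and MMP7 were not called between EGF with cetuximab and EGF alone. Against untreated cells, which also served as controls for EGF alone, EGF with cetuximab for 24 h left MMP14 at 17.3, 21.1 and 16.7 CPM (log2FC -0.93, SE 0.16, adjusted p = 8.95e-05). MMP13 had 0, 10 and 3 counts there (log2FC -2.29, SE 0.60, adjusted p = 0.00662) and was the 1 member regulated of 7, where 3.38% of all genes were. It did not hold without replicate 1 (log2FC -1.59, adjusted p = 0.287) and was -3.69 without replicate 2. MMP7 was at 0.194, 0.259 and 0.193 CPM (log2FC -0.84, adjusted p = 0.0691, and 0.0413 with the replicate block). After 4 h 0 of 7 members were called by edgeR (0.116% of all genes), 0 by DESeq2, and 1 had an unadjusted p below 0.05.

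Cetuximab alone raised MMP13 at 24 h, from 0.462, 0.470 and 0.343 CPM to 1.37, 1.22 and 0.678 CPM (log2FC 1.35, SE 0.42, adjusted p = 0.0342). It was the 1 of 7 members regulated, where 1.33% of all genes were, and the call did not hold without replicate 1 (0.200), 2 (0.136) or 3 (0.0879). MMP9 (log2FC 0.76, adjusted p = 0.143) passed with the replicate block (0.0234). For 4 h, 0 of 7 were called by edgeR (0.333% of all genes) and by DESeq2, with 1 at an unadjusted p below 0.05. This was MMP14, at 26.8, 24.6 and 22.8 CPM against 19.3, 16.0 and 16.6 (log2FC 0.51, adjusted p = 0.114, and 0.0288 with the replicate block).

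Afatinib moved MKN1 members at 24 h but not at 4 h. At 4 h 0 of 7 were called by edgeR or DESeq2 (0.681% of all genes), and 1 had an unadjusted p below 0.05. Afatinib with trastuzumab at 4 h likewise gave 0 of 7 against untreated cells (0.727% of all genes, 1 member at an unadjusted p below 0.05) and against trastuzumab (0.631%, 0 members), with 0 by DESeq2 in both. In the former MMP14 (log2FC 0.47, adjusted p = 0.0972) passed with the replicate block (0.0289). At 24 h MMP13 and MMP7 rose, 2 of 7, where 4.19% of all genes were regulated. MMP13 stood at 1.29, 1.74 and 1.28 CPM against 0.462, 0.470 and 0.343 in untreated cells (log2FC 1.75, SE 0.42, adjusted p = 0.00203). MMP7 stood at 1.09, 1.04 and 0.722 CPM against 0.427, 0.429 and 0.301 (log2FC 1.30, SE 0.27, adjusted p = 0.000564). Both calls held without any 1 replicate number. MMP14, at 57.0, 42.7 and 41.4 CPM against 35.4, 39.9 and 29.7, did not overlap and passed the test at less than 2-fold (log2FC 0.43, SE 0.16, adjusted p = 0.0401), but not without replicate 1 (0.287) or 3 (0.269).

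MMP9 in MKN1 with afatinib for 24 h was at 0.776, 0.567 and 0.942 CPM against 0.462, 0.347 and 0.429 (log2FC 0.87, adjusted p = 0.0534), and passed with the replicate block (0.00562) and by DESeq2 (0.0380). With trastuzumab added to afatinib, MMP13 stood at 1.60, 1.50 and 1.25 CPM at 24 h (log2FC 1.76, adjusted p = 0.00182), the 1 member regulated where 4.24% of all genes were. MMP7 stood at 0.709, 0.714 and 0.567 CPM (log2FC 0.78, adjusted p = 0.0366), which did not hold without replicate 1 (0.110), 2 (0.0530) or 3 (0.264). Against trastuzumab alone, MMP13 rose by a log2FC of 1.82 (adjusted p = 0.00124) and MMP7 by 1.02 (0.00681), 2 of 7 where 4.22% of all genes were regulated. That MMP7 call did not hold without replicate 1 (0.0650) or 3 (0.104). MMP14 passed there at less than 2-fold (0.43, adjusted p = 0.0343), with groups that overlapped, and not without replicate 1 (0.113) or 3 (0.277). With the replicate block MMP9 against trastuzumab (0.72, adjusted p = 0.119) and MMP14 against untreated cells (0.38, 0.0652) passed as well (0.0231 and 0.0241).

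**Figure D2:**
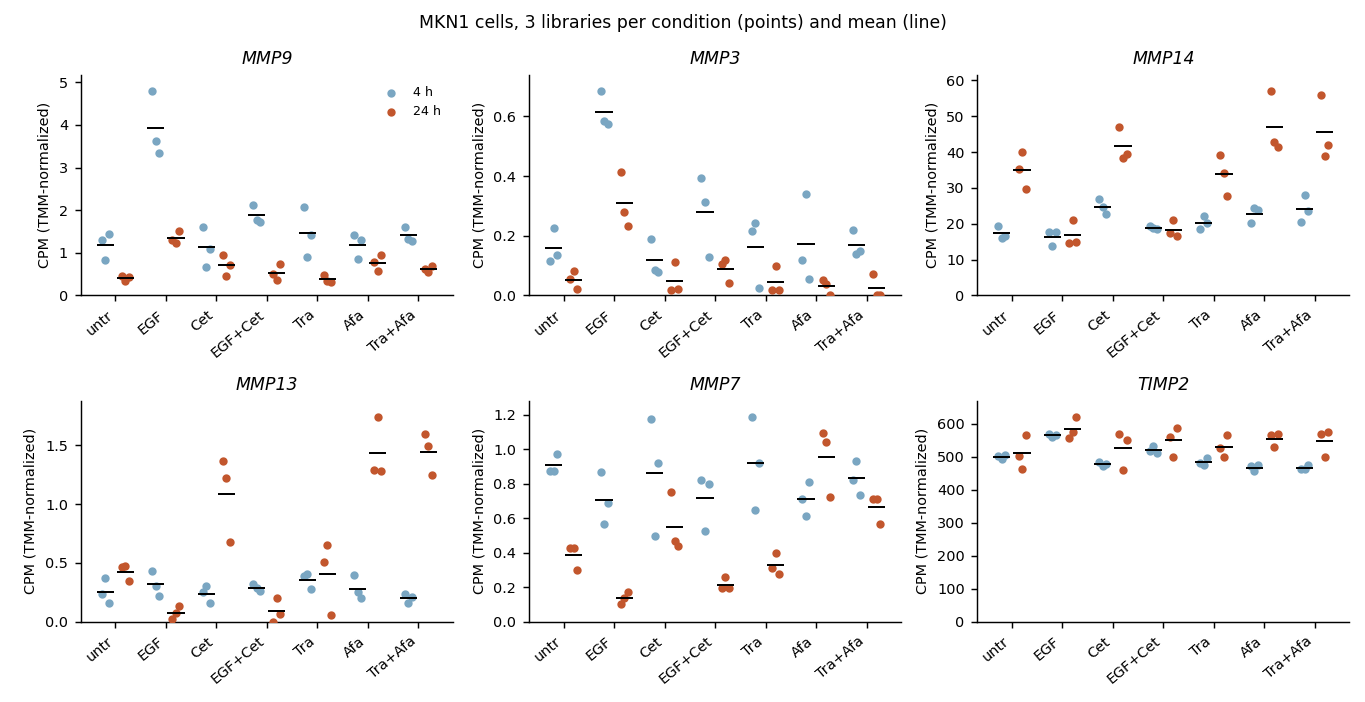
Normalised counts (CPM) of 6 members in MKN1 by treatment (untr, untreated; Cet, cetuximab; Tra, trastuzumab; Afa, afatinib), 1 point per library, 3 per condition, with the mean as a line, 4 h in blue and 24 h in orange; each panel has its own axis. MMP9 is highest with EGF at 4 h (3.35 to 4.80 CPM), and MMP14 at 24 h stands at 14.7 to 21.2 CPM with EGF and 29.7 to 39.9 CPM untreated.

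In MKN7 afatinib moved 5 of 6 members tested at 24 h, where 13.5% of all genes were regulated. Of the secreted proteases, MMP9, MMP3 and MMP2 fell and MMP13 was not called, while MMP14 and TIMP2 rose. At 4 h 0 of 6 were called by edgeR (3.4% of all genes) or DESeq2, and 0 had an unadjusted p below 0.05. With trastuzumab added the 4 h counts were 0 of 6 against untreated cells (3.71% of all genes, 0 at an unadjusted p below 0.05, 0 by DESeq2) and 0 of 6 against trastuzumab (2.96%, 1 at an unadjusted p below 0.05). That 1 was MMP2 (log2FC -0.53, adjusted p = 0.0744), which passed the adjusted p with the replicate block (0.0212) and by DESeq2 (0.0455).

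MMP9 stood at 35.5, 33.8 and 150 CPM in untreated MKN7 cells at 24 h and at 10.1, 8.43 and 8.98 CPM with afatinib (log2FC -2.99, SE 0.48, adjusted p = 2.92e-05). The groups did not overlap, and replicate 3 was high in untreated cells also at 4 h (148 CPM against 91.6 and 84.3). Without replicate 3 the log2FC was -1.92 (adjusted p = 1.47e-06). MMP3 stood at 6.63, 3.19 and 3.87 CPM and at 2.36, 1.29 and 0.909 with afatinib (log2FC -1.60, SE 0.47, adjusted p = 0.00739; 0.0740 without replicate 3). Here replicate 1 was the highest in untreated cells at both times. MMP2 stood at 2.27, 1.69 and 1.93 CPM and at 0.844, 0.936 and 0.782 with afatinib (log2FC -1.19, SE 0.22, adjusted p = 0.000138).

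MMP14 stood at 92.5, 111 and 122 CPM in untreated cells at 24 h and at 258, 344 and 291 CPM with afatinib (log2FC 1.46, SE 0.17, adjusted p = 6.67e-07). TIMP2, which binds MMP14 and pro-MMP2, stood at 398, 412 and 270 CPM and at 969, 1008 and 685 (log2FC 1.30, SE 0.20, adjusted p = 1.38e-05). Replicate 3 was the lowest for TIMP2 in both groups, and neither gene's groups overlapped. Scaling by library size alone moved the median of all genes by 0.115 here and left both directions as they were. MMP13, at 1.21, 0.905 and 1.29 CPM against 1.18, 0.713 and 0.628, was not called (log2FC 0.42, adjusted p = 0.350).

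Afatinib with trastuzumab was compared with the same untreated MKN7 libraries as afatinib alone. There the 24 h log2FC was -2.81 for MMP9, -1.69 for MMP3, -1.14 for MMP2, 1.45 for MMP14 and 1.27 for TIMP2 (adjusted p from 7.06e-07 to 0.00532), 5 of 6 members where 13.9% of all genes were regulated. Without replicate 3 this MMP9 value was -1.72, and MMP3 missed the threshold (adjusted p = 0.0570), and MMP2 was at -0.98, as it was without replicate 1. Against trastuzumab alone, whose libraries are separate, the values were -2.05 for MMP9, -1.41 for MMP3, -1.33 for MMP2, 1.23 for MMP14 and 1.05 for TIMP2 (adjusted p from 8.79e-06 to 0.0213), again 5 of 6, where 9.7% of all genes were regulated. Without replicate 3 that MMP9 value was -1.29 and that of TIMP2 0.99, and MMP3 missed the threshold without replicate 2 (0.0788) or 3 (0.144).

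**Figure D3:**
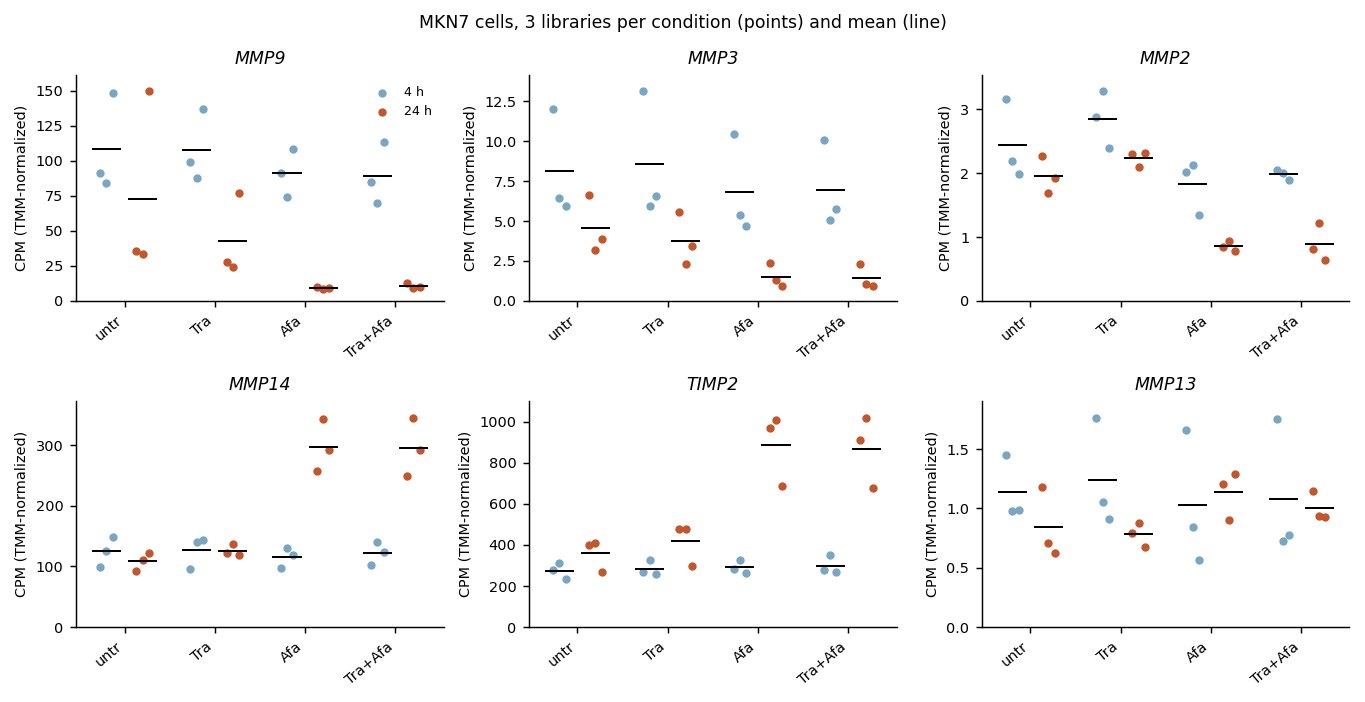
Normalised counts (CPM) of 6 members in MKN7 by treatment (untr, untreated; Tra, trastuzumab; Afa, afatinib), 1 point per library, 3 per condition, with the mean as a line, 4 h in blue and 24 h in orange. At 24 h MMP9 stands at 8.43 to 10.1 CPM with afatinib and 33.8 to 150 CPM untreated, and MMP14 at 258 to 344 CPM against 92.5 to 122.

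In NCI-N87 MMP7 rose with afatinib at 24 h. MMP7 stood at 3.83, 1.24 and 1.56 CPM in untreated cells and at 16.9, 8.67 and 12.5 CPM with afatinib, with no overlap (log2FC 2.51, SE 0.54, adjusted p = 0.000342), and the call held without any 1 replicate number. The promoter of MMP7 shown above has AP-1 and ETS matches, whose part in this rise was not tested. Some AP-1 and ETS factors, among them FOSL1 and ETV5, fell in the same comparison, with values given below. In all 3 of 6 members were regulated, in a comparison where 29.6% of all genes were.

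MMP3 had 0, 2 and 0 counts in untreated NCI-N87 libraries at 24 h and 17, 17 and 8 with afatinib. The ratio of summed CPM was 17.8, with an exact 95% interval from 4.63 to 152 that covers counting error only. Its fitted log2FC of 3.93 (SE 0.85, adjusted p = 0.000386) was 3.27 without replicate 1 and 6.48 without replicate 2, the only untreated library with a count. MMP2 fell from 0.341, 0.370 and 0.160 CPM to 0.0708, 0.0538 and 0.115 (log2FC -1.85, SE 0.61, adjusted p = 0.0111). It missed the threshold without replicate 1 (0.0531) or 2 (0.145), and was -2.46 without replicate 3.

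TIMP2 and MMP14 rose in NCI-N87 by less than 2-fold. TIMP2 stood at 156, 174 and 165 CPM and at 279, 284 and 299 with afatinib (log2FC 0.80, SE 0.07, adjusted p = 7.68e-10). MMP14 stood at 29.0, 16.4 and 16.6 CPM and at 47.8, 32.0 and 35.5 (log2FC 0.90, SE 0.31, adjusted p = 0.0168), with no overlap but not past the threshold without replicate 2 (0.0766) or 3 (0.114). Scaled by library size alone the values were 1.06 for TIMP2 and 1.16 for MMP14, in a comparison where that scaling moved the median of all genes by 0.260. Nor was any of 6 members called at 4 h by edgeR (3.24% of all genes) or DESeq2, where 1 had an unadjusted p below 0.05. With trastuzumab added, 0 of 6 were called at 4 h against untreated cells (3.01%) or trastuzumab (4.0%) by edgeR or DESeq2, and 0 had an unadjusted p below 0.05. MMP14 against untreated cells (log2FC 0.43, adjusted p = 0.405) passed with the replicate block (0.38, 0.0186).

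Afatinib with trastuzumab gave NCI-N87 values at 24 h of 14.4, 9.29 and 13.5 CPM for MMP7 (log2FC 2.48 against untreated, adjusted p = 0.000372) and 32, 21 and 14 counts for MMP3 (ratio 30.0, exact 95% interval 7.99 to 253). These were 2 of 6 members regulated, near the 31.6% of all genes. TIMP2 (log2FC 0.79, adjusted p = 8.35e-10) and MMP14 (0.80, 0.0298) passed the test at less than 2-fold, MMP14 not without replicate 2 (0.111) or 3 (0.196). MMP2 did not pass (log2FC -1.27, adjusted p = 0.0570), and did with the replicate block (-1.33, 0.0166). Against trastuzumab alone MMP7 rose by a log2FC of 2.28 (adjusted p = 0.000843) and TIMP2 by 0.72 (4.34e-09), while MMP3 had a ratio of 19.1 (exact 95% interval 6.25 to 94.7). Regulated there were 2 of 6, with 28.2% of all genes. MMP14 (log2FC 0.63, adjusted p = 0.0871) passed with the replicate block (0.66, 3.08e-05).

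**Figure D4:**
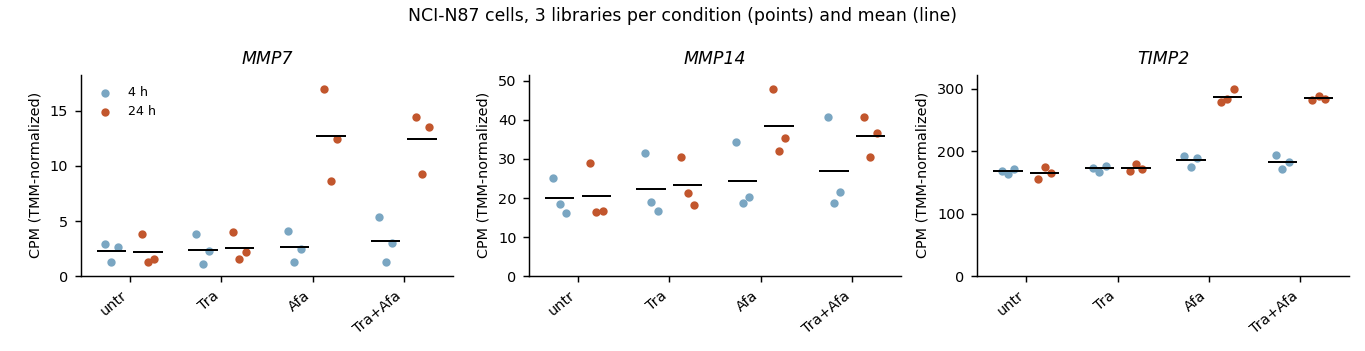
Normalised counts (CPM) of MMP7, MMP14 and TIMP2 in NCI-N87 by treatment (untr, untreated; Tra, trastuzumab; Afa, afatinib), 1 point per library, 3 per condition, with the mean as a line, 4 h in blue and 24 h in orange. MMP7 at 24 h stands at 8.67 to 16.9 CPM with afatinib and 1.24 to 3.83 CPM untreated, and TIMP2 at 279 to 299 CPM against 156 to 174.

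Hs746T, the line with by far the most MMP14, showed no called change of any member. For EGF, cetuximab or both 0 of 48 member tests over 8 comparisons were called by edgeR or DESeq2, 0 had an unadjusted p below 0.05, and the log2FC ran from -0.49 to 0.93. For afatinib with or without trastuzumab it was 0 of 36 over 6 comparisons, likewise 0 by DESeq2 and 0 at an unadjusted p below 0.05, with the log2FC from -0.91 to 0.43. In each of these comparisons 0.0% of all genes were regulated, so the members did not stand out. MMP14 kept between 1798 and 2244 CPM over all 42 libraries, with condition means from 1882 to 2069, and TIMP2 between 559 and 687 CPM. MMP3 ran from 3.79 to 10.7 CPM, MMP9 from 0.118 to 1.18 and MMP13 from 0.107 to 0.583.

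Trastuzumab alone moved no member in any of the 4 lines. Over 8 comparisons 0 of 50 tests were called by edgeR or DESeq2, 0 had an unadjusted p below 0.05, and 0.0% of all genes were regulated in each. The largest fall in value was MMP9 in MKN7 at 24 h, at 27.5, 24.1 and 77.3 CPM against 35.5, 33.8 and 150 in untreated cells (log2FC -0.76, SE 0.44). MMP3 in NCI-N87, with 2, 0 and 1 counts against 0, 2 and 0 at 24 h, was too low for a fold change.

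The effects of afatinib at 24 h were then compared between lines in the fit of all libraries, with MKN1 as reference. MKN7 differed from MKN1 for 4 of 7 members, where 3.6% of all genes did. The difference was 1.17 for TIMP2 (SE 0.16, adjusted p = 2.32e-08), 1.02 for MMP14 (SE 0.27, adjusted p = 0.00881), -3.87 for MMP9 (SE 0.63, adjusted p = 3.44e-06) and -1.39 for MMP2 (SE 0.45, adjusted p = 0.0363) on the log2 scale. Of these, TIMP2 and MMP9 held without any 1 replicate number, MMP9 at -2.61 without replicate 3. MMP14 was not past the threshold without replicate 2 (0.369) or 3 (0.0906), and MMP2 not without replicate 1 (0.108), 2 (0.195) or 3 (0.184). MMP13 (-1.33, adjusted p = 0.103) passed with the replicate block (-1.30, 0.0115).

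NCI-N87 differed from MKN1 for MMP3 (4.65, adjusted p = 0.0172, with at most 4 counts in each MKN1 library compared) and MMP2 (-2.03, adjusted p = 0.0259), 2 of 7 where 13.4% of all genes did, and for TIMP2 by less than 2-fold (0.70, adjusted p = 0.000249). MMP3 was not past the threshold without replicate 2 (0.0628, at 6.89) or 3 (0.0665), and MMP2 not without replicate 1 (0.118) or 2 (0.263). MMP7 (1.23, adjusted p = 0.0913) and MMP14 (0.48, 0.201) passed with the replicate block (1.32, 0.000779 and 0.51, 0.00755). Hs746T differed from MKN1 for MMP13 (-1.98, adjusted p = 0.0414), 1 of 7 where 1.34% of all genes did, and not without replicate 1 (0.0712), 2 (0.339) or 3 (0.321) or with no filter (0.0738). Earlier, at 4 h, 0 of 7 members differed for MKN7 (0.473% of all genes), NCI-N87 (0.565%) or Hs746T (0.245%).

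The effect of EGF at 24 h in Hs746T differed from that in MKN1 for 3 of 7 members, where 3.15% of all genes did. These were MMP13 (2.63, adjusted p = 0.0101), MMP14 (1.14, adjusted p = 0.00302) and MMP3 (-2.40, adjusted p = 0.0425). None held in every fit without 1 replicate number: MMP3 was at 0.155 to 0.172 (0.0630 with no filter, 0.0510 scaled by library size), MMP13 missed without replicate 1 (0.132) or 2 (0.168) and MMP14 without 2 (0.0865) or 3 (0.0732). MMP9 (-1.64, adjusted p = 0.181) passed with the replicate block (-1.73, 0.0468). At 4 h 0 of 7 differed (0.486% of all genes), and MMP3 (-1.83, 0.222) passed with the block (-1.84, 0.00420).

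**Figure D5:**
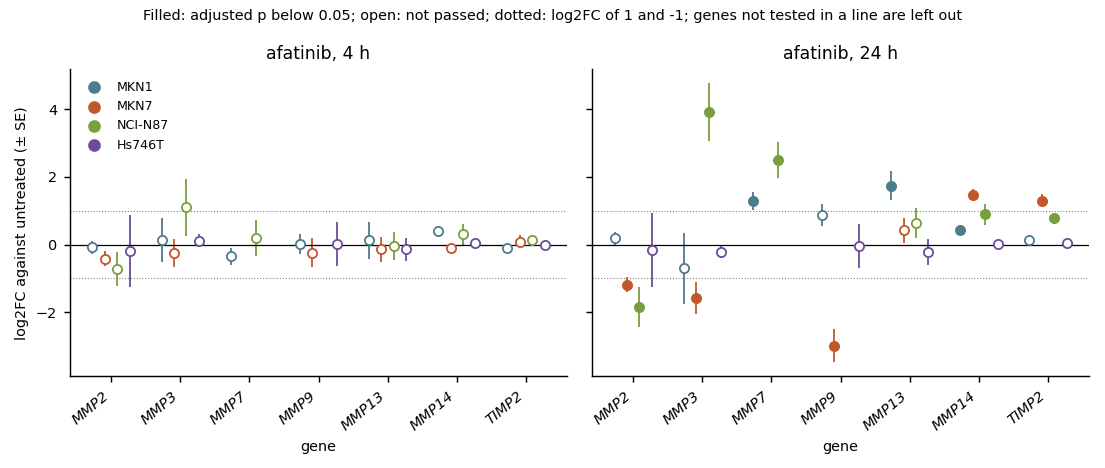
Effect of afatinib on the members, as log2FC against untreated cells with its standard error, by cell line at 4 h and 24 h; filled points have an adjusted p below 0.05, and dotted lines mark a log2FC of 1 and -1. At 24 h MMP9 is at -2.99 in MKN7 and 0.87 in MKN1, and MMP7 at 2.51 in NCI-N87, while no point of Hs746T is filled.

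Other genes around these proteases were counted in lists chosen by function. Genes below the filter are not among those tested. Of the listed genes that lie wholly inside other genes, FOSB, JUNB, MMP24 and MMP28 were listed at 0 and ETV4 had 694 counts in all. PLAU lies inside other genes over 90.5% of its span. For these genes low expression and the overlap cannot be told apart. The plasminogen system is another protease system at the cell surface. Of its 5 genes tested, 4 rose with EGF at 24 h in MKN1, including SERPINB2 (log2FC 3.83) and PLAUR (1.34), the urokinase receptor. The median log2FC of the 5 was 1.34. With afatinib at 24 h 0 of 5 were regulated in MKN1 (3 passed the adjusted p, lower), 4 of 5 fell in MKN7, including SERPINB2 (-2.77) and PLAUR (-1.22), and 3 of 5 fell in NCI-N87, including SERPINE2 (-2.29), with medians of -0.63, -1.16 and -1.42. Of 9 AP-1 and ETS factors tested, 3 rose with EGF at 24 h in MKN1, including FOSL1 (1.84) and ETV1 (1.28), with a median of 0.83. With afatinib at 24 h 4 of 9 fell in MKN1, 5 of 9 in MKN7 and 4 of 9 in NCI-N87, with FOSL1 at -2.65, -2.75 and -4.16 and ETV5 at -2.71, -4.18 and -4.42 in that order and medians of -0.73, -1.85 and -0.84. The 3 MAPK output genes DUSP6, SPRY4 and EGR1 fell in each of those 3 lines. These values come from the same comparisons as the members, in which 8.36%, 4.19%, 13.5% and 29.6% of all genes were regulated and the median over all genes was -0.0455, 0.00511, 0.0435 and 0.0323.

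Of the other matrix metalloproteinases, 3 of 9 tested rose with afatinib at 24 h in MKN7, including MMP20 (log2FC 1.81) and MMP11 (1.17), and 2 of 9 in NCI-N87, including MMP23B (1.79), where 13.5% and 29.6% of all genes were regulated in either direction, so that the NCI-N87 share was below that of all genes. With EGF at 24 h in MKN1 MMP11 was the 1 of 6 regulated (-1.07), beside 8.36% of all genes. In MKN7, 4 of 9 ADAM and ADAMTS proteases, which shed or cut surface and matrix proteins, fell with afatinib, led by ADAMTS9 (-1.80), ADAM19 (-1.57) and ADAM8 (-1.51). ADAMTS9 rose with afatinib at 24 h in MKN1 (1.33), where 4.19% of all genes were regulated. Of 10 substrate genes, 4 rose with EGF at 24 h in MKN1, including the laminin chain LAMA3 (2.17) and the collagen IV chain COL4A2 (1.59).

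Cell type markers moved in some of these comparisons as well. With EGF in MKN1 VIM rose by a log2FC of 1.73 and CDH1 fell by 1.35 at 24 h, beside the changes of MMP9, MMP3, MMP14, MMP7 and MMP13. VIM was the only regulated gene of the 3 mesenchymal markers. CDH1, at 1.01 against 2.54 CPM, was the only one of the 5 epithelial markers. DCN, a fibroblast marker near 0, was at -3.33, and 8.36% of all genes were regulated in this comparison. With cetuximab alone at 24 h, beside the change of MMP13, CDH1 rose by 1.01 and DCN by 1.33. CDH1 was again the only epithelial marker regulated, where 1.33% of all genes were. In NCI-N87 the keratins KRT18 and KRT8, 2 of 5 epithelial markers, fell in all 3 afatinib comparisons at 24 h, beside the rise of MMP7. Of all genes, 29.6% were regulated there with afatinib. With trastuzumab added it was 31.6% against untreated cells and 28.2% against trastuzumab. For afatinib with trastuzumab against untreated cells the log2FC was -2.08 for KRT18 and -1.59 for KRT8. In untreated MKN1 cells VIM fell by 1.03 between 4 h and 24 h, beside the changes of MMP14, MMP9 and MMP7, while DCN was at 1.82 and PTPRC at 3.31. VIM was again the only mesenchymal marker regulated, where 8.06% of all genes were. DCN was also higher in all 3 afatinib comparisons of MKN1 at 24 h (2.26 for afatinib with trastuzumab against trastuzumab), and PTPRC with afatinib at 24 h in MKN7 (1.55), but DCN did not exceed 1.32 CPM in any library. The part of these markers in the protease values was not tested.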

How the data were processed

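RNA sequencing of mRNA from MKN1, MKN7, NCI-N87 and Hs746T cells (44 conditions with 3 biological replicates each) was analysed from the deposited raw counts per Ensembl gene identifier, 1 file per library. Libraries were made with a directional kit and sequenced paired end. Per the labels, the submitters' processing notes name STAR, Trim Galore and hg38, and the counter and its strand setting are not given in the sources used here. Identifiers were matched to GENCODE 29 (GRCh38), which lacks 8404 of 65217, holding 0.0422% of the counts. Counts on mitochondrial genes were 0. Total counts ranged from 25832557 to 69434151, and intervals cover counting error only. No replicates were identical, and differences between them were at least 7.02 times the Poisson expectation.

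Groups were taken from the sample labels. The tool was edgeR 4.0.16 under R 4.3.3 (glmQLFit and glmQLFTest after TMM scaling, genes kept by filterByExpr at a count of 10 and a total of 15), with 1 fit per cell line and 1 fit of all libraries for differences between lines, over 66 contrasts. Benjamini-Hochberg adjustment ran over all genes tested within a contrast. Regulated genes had an adjusted p under 0.05 with a log2FC beyond 1 in either direction. MMP7 was below the filter in MKN7 and Hs746T and MMP9 in NCI-N87. The script was tested on simulated data. Figures used Python 3.11.15 and matplotlib 3.10.9. The members and gene lists were chosen with earlier results of these data known. All 10 members were described in every contrast, of each other list at most 3 regulated genes with the largest absolute log2FC per family of contrasts were named, and for each member with a mean CPM of at least 1 in a condition the 3 genes with the most similar condition means. Some genes of the lists are not reported here.

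Replicate numbers come from the labels. Deviations of same-numbered samples correlated above 0.1 for all 3 pairs in 51 of 52 contrasts within lines, so the numbers were taken to pair the samples, and a fit with the replicate number as a block was an alternative. The other alternatives were DESeq2 1.42.0, scaling by library size, a count of 10 or more in each library, no filter, only the groups compared, the adjusted p alone, and leaving out each replicate number.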

Additional observations from a re-analysis of the deposited data

Results flagged for a closer look

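These results were singled out because the effect of a treatment in a line differed from its effect in MKN1 by an interaction contrast over all libraries (edgeR quasi-likelihood test, Benjamini-Hochberg adjusted). For afatinib at 24 h, MKN7 minus MKN1 gave 1.02 for MMP14, -1.39 for MMP2, -3.87 for MMP9 and 1.17 for TIMP2 on the log2 scale. In MKN7 the effects themselves were 1.46, -1.19, -2.99 and 1.30, and in MKN1 MMP14 was at 0.43 and MMP9 at 0.87. MMP9 was -2.61 without replicate 3, the replicate with the highest untreated MKN7 level.

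NCI-N87 minus MKN1 gave -2.03 for MMP2 and 4.65 for MMP3, the latter resting on 2 counts in untreated NCI-N87 cells and on 0.0529, 0.0378 and 0 CPM with afatinib in MKN1. Hs746T minus MKN1 gave -1.98 for MMP13 with afatinib, a call that did not hold without replicate 1 (adjusted p = 0.0712), 2 (0.339) or 3 (0.321).

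For EGF at 24 h, Hs746T minus MKN1 gave 2.63 for MMP13, 1.14 for MMP14 and -2.40 for MMP3. In MKN1 the EGF effects were -2.44, -1.05 and 2.50, and in Hs746T they were 0.15, 0.05 and 0.07, none of which was called.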

How the results depend on the processing

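Counts of regulated member tests are given here under the alternatives that changed them. For EGF in MKN1 (8 of 28 tests) the count was 10 by the adjusted p alone, 9 with scaling by library size, 7 in a fit of only the groups compared, 3 with at least 10 counts in every library and 2 to 7 without 1 replicate number, lowest without replicate 1. For EGF with cetuximab against EGF (2 of 14) it was 1 with scaling by library size, 0 in a fit of only the groups compared and 0 to 0 without 1 replicate number. For cetuximab in MKN1 (1 of 14) it was 0 with at least 10 counts and 0 to 0 without 1 replicate number. For afatinib in MKN1 (5 of 42) it was 8 by the adjusted p alone, 0 with at least 10 counts, which leaves fewer genes tested, and 4 to 5 without 1 replicate number. For MKN7 (15 of 36) it was 10 to 14 and for the 2 times (3 of 25) 2 to 3 without 1 replicate number and 2 with at least 10 counts. For NCI-N87 (7 of 36) it was 12 by the adjusted p alone, 12 with scaling by library size, 5 in a fit of only the groups compared, 4 with at least 10 counts and 6 to 9 without 1 replicate number. Between untreated lines (32 of 42) it was 38 by the adjusted p alone, 8 with at least 10 counts and 32 to 33 without 1 replicate number, and for differences between lines (10 of 56) 3 and 2 to 6, with 11 by the adjusted p alone and 8 with no filter. The cause of these shifts was not tested, except that fewer genes or samples entered some fits. The TIMP2 difference with EGF at 24 h in MKN1 reversed to -0.0029 with scaling by library size. For trastuzumab and Hs746T the count was 0 under every alternative.

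With the replicate block, which changed no call other than those given beside the results and TIMP2 between NCI-N87 and MKN7 (-0.99, just under 2-fold), the count was 3 for EGF with cetuximab against EGF, 8 for EGF in MKN1, 8 for NCI-N87, 31 between lines and 14 for differences between lines, and DESeq2 gave the same counts as edgeR. Among 100 member results past the adjusted p, the block and DESeq2 kept 100. Of these, 38 were between untreated lines. There the block, set within each line, takes spread between replicates out of the error, so that keeping them says little. Beyond the 100 results, 22 others passed with the block but not in the main fit, and 2 others passed so by DESeq2. Fits of only the groups compared were not run between lines, and 52 results had no value under an alternative. Depth limits MMP3, MMP7 and MMP13, which had under 10 counts in many libraries.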

Other observations

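The genes whose condition means most resembled those of a member were listed over the 14 conditions of MKN1 (Pearson r of log2 CPM with a prior count of 2, as a description over conditions that share time points and controls). For MMP14 these were PTPRA (r = 0.991), DOCK8 (0.990) and FAM182B (0.990). For MMP13 they were CFI (0.981), UBL3 (0.980) and CD99P1 (0.980), and for MMP9 GBE1 (0.955), ADGRG1 (0.954) and ALOXE3 (0.953). For TIMP2 they were FAM83A (0.955), CATSPER1 (0.954) and LINC02492 (0.937). MMP2, not called after any treatment of MKN1, had lower values, led by SLC6A20 (0.830). Over all 44 conditions no r is given, because the conditions fall into 4 separate cell lines.

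In NCI-N87 with afatinib at 24 h, ERBB3 (HER3), a receptor that pairs with HER2, rose from 89.0 ± 12.1 to 321 ± 15.5 CPM (SD, n = 3, log2FC 1.85), beside the rise of MMP7. In that comparison 29.6% of all genes were regulated. EGFR fell with afatinib and trastuzumab against untreated NCI-N87 cells at 24 h, from 201 ± 8.74 to 76.9 ± 13.8 CPM (log2FC -1.38), where 31.6% of all genes were regulated. In MKN7 with afatinib at 24 h, PTPRC passed the test at 0.346 ± 0.177 against 0.115 ± 0.0746 CPM (log2FC 1.55, adjusted p = 0.0409), with groups that overlapped and a level near the floor.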
